A study of Mus musculus with 14 samples.

Results

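Tumours taken after 18 days of BRAF inhibition were compared with tumours taken after 6 days of the same treatment. The comparison holds 4 of the 14 tumours of the series: 2 of day 18 and 2 of day 6, chosen by their labelled treatment and day. All were subcutaneous tumours of SMM102, a mouse melanoma cell line, in C57BL/6J females aged 6 to 8 weeks, with 100000 cells per injection and 2 injections per mouse. Dosing started at a tumour volume of 150 to 300 mm3. The drug, PLX4032 or vemurafenib, blocks the BRAF kinase and was dosed by intraperitoneal injection at 50 mg/kg, 5 days a week. Control tumours of day 3 (n = 2) and day 6 (n = 2) served only as a reference level. Their labels read untreated, whereas the design text names a vehicle. A control of day 18 was not analysed here, so 12 more days of treatment and 12 more days of tumour growth cannot be told apart. The day 6 titles carry different animal numbers, whereas the day 18 titles do not say whether the tumours came from different mice. The p-values measure only the spread between tumours within groups, estimated from all 14 tumours of the series.

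BRAF drives the MAPK cascade, which switches on genes of growth and cell division, and its inhibition in melanoma lowers that output until the tumour adapts or relapses. A tumour under the skin lies beside the fat layer, whose adipocytes store triglycerides in droplets coated by perilipins and secrete hormones such as adiponectin. Cytotoxic T cells and NK cells kill through perforin and granzymes, a family of serine proteases, and their interferon gamma raises antigen presentation in the cells around them.

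RNA was sequenced from whole frozen tumours. The deposited signal is on a per-million scale, with column sums from 879385 to 1084401 and an unknown read depth. Of 18481 genes listed, 15841 reached a signal of 1 in at least 2 of the 14 tumours and were tested. The log2 values correlated at 0.976 between the day 6 tumours and at 0.978 between the day 18 tumours across genes, which are not independent replicates. Changes are differences of log2(signal + 1), day 18 minus day 6, from limma fitted to all 14 tumours, which share 8 residual degrees of freedom. Part of these come from 4 tumours of day 27 that were taken from 2 mice. A gene is said to rise or fall where its Benjamini-Hochberg adjusted p lay under 0.05. Because 1 is added to each value, folds of weakly expressed genes come out too small.

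From day 6 to day 18 the largest rises were in genes of fat cells, and the largest falls were in 4 granzyme genes of 1 cluster. Of 15841 genes, 239 changed (1.51%), 216 of them higher at day 18 (1.36%) and 23 lower (0.145%), so that 90.4% of the calls were higher. Cfd, the adipocyte protease adipsin, had the largest rise. Gzmf and Gzmg, both granzyme genes, had the lowest fitted changes, and their order depends on the value added before the logarithm. At an unadjusted p under 0.05 there were 1451 genes higher (9.16%) and 737 lower (4.65%). The median change of all genes tested was 0.03. Both day 18 tumours lay above both day 6 tumours for 4801 genes (30.3%) and below them for 2922 (18.4%).

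Most of the genes that rose were at their highest in the series at day 18. For 165 of the 216, both day 18 tumours lay above the other 12 tumours, against 817 of all genes tested (5.16%). Both day 18 tumours lay above all 4 controls for 208 of them (96.3%, against 24.9% of all genes), and both day 6 tumours lay below all 4 controls for 32 (14.8%, against 12.8%). The mean of day 27 lay under the mean of day 6 for 149 (69%, against 49.2%). In 86 the day 6 mean was under 1 (39.8%, against 7.47%), which makes their fold uncertain. A change of 1 or more was found in 185 of them and in 460 of all genes tested, and a change of 3 or more in 37 and in 42. Of the 23 genes that fell, 9 had both day 6 tumours above all 4 controls (39.1%, against 16.2% of all genes) and 16 had both day 18 tumours below them (69.6%, against 13.5%). The genes that rose or fell were chosen by this same contrast, so their shares differ from those of all genes in part by that choice. A gene at 1 or more in only the 2 day 18 tumours passes the filter and lies above the other 12 by construction. The count of calls rested on single libraries: it was 93 without day 6 tumour 2 and 122 without day 18 tumour 2. Without day 6 tumour 1 it was 289, of which 51.9% were higher, and a fit on the 4 compared tumours alone called 57.

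**Figure D1:**
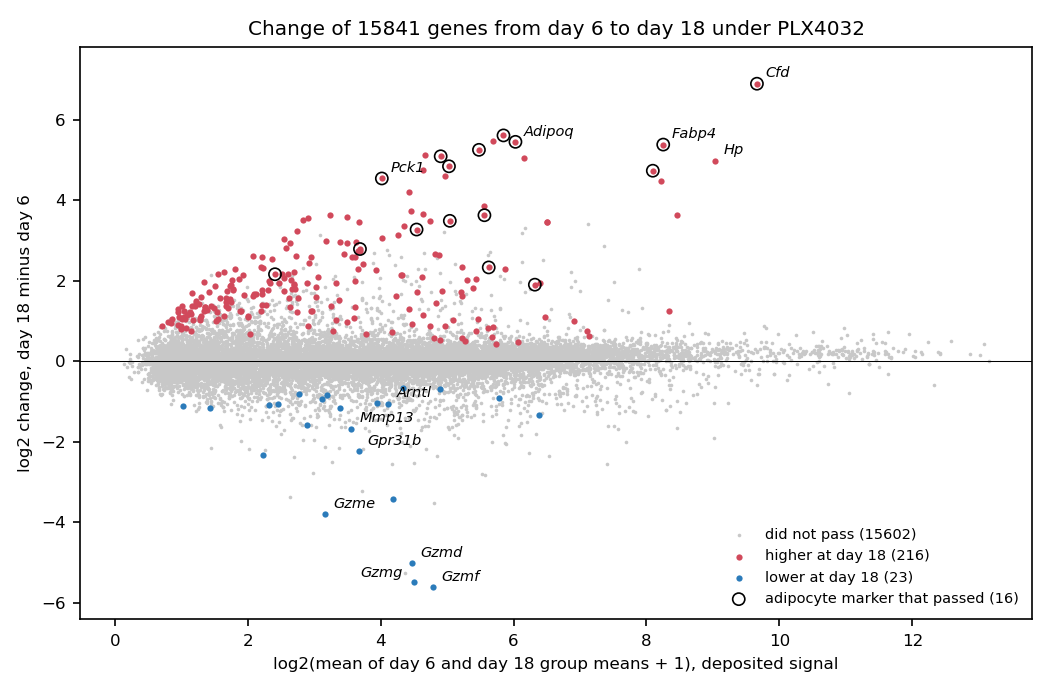
Each point is 1 gene, with the log2 of the mean of the day 6 and day 18 group means plus 1 on the horizontal axis and the log2 change, day 18 minus day 6, on the vertical axis. The 216 genes that rose are red, the 23 that fell are blue, and the 16 adipocyte markers that rose are ringed. The rises reach 6.89 (Cfd) and the falls -5.60 (Gzmf).

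Adipocyte genes rose nearly as a whole list. Of 23 markers listed, 18 were tested, 16 rose and 0 fell, with a median change of 4.08 against 0.03 over all genes. All 18 had both day 18 tumours above both day 6 tumours, and 17 had them above the other 12 tumours. Over all genes tested, 1.36% rose, 30.3% had the former pattern and 5.16% the latter. Any marker at 1 or more only in the day 18 tumours lies above the other 12 by construction. The summed signal of the 18 genes was 138 and 150.4 in the day 6 tumours, 3572 and 3794 in the day 18 tumours and 89.5 to 174 in the controls. In the treated tumours of day 3 it was 378 and 348, and in those of day 27 it ran from 67.3 to 91.7. In whole tumours, more fat cells in the piece taken and more RNA per fat cell cannot be told apart. Cidea, Lep, Aqp7 and Ucp1 were not analysed here, and Acvr1c lay below the filter with 0.0308 and 0.0897 at day 6 and 0.778 and 0.818 at day 18.

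Genes of secreted products of fat cells were among the largest rises. Cfd stood at 11.6 and 13.5 in the day 6 tumours and at 1737 and 1475 in the day 18 tumours, with 1.18 to 27.8 in the controls. Both day 18 tumours were far above every other tumour, and the log2 change was 6.89 (SE 0.92, adjusted p = 0.00318). Adipoq, which encodes the hormone adiponectin, stood at 1.76 and 2.06 at day 6 and at 111 and 142 at day 18. The groups did not overlap, and the change was 5.45 (SE 0.61, adjusted p = 0.000912). Retn, the gene of the adipocyte hormone resistin, went from 1.22 and 1.07 to 69.0 and 155, a change of 5.61. The second day 18 tumour had the higher level of Adipoq and Retn, and the first had the higher level of Cfd.

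Genes of lipid droplets and fatty acid handling were also among the rises. Plin1, which encodes the perilipin that coats the fat droplet, stood at 0.722 and 0.603 at day 6 and at 43.2 and 71.2 at day 18 (change 5.09, SE 0.35, adjusted p = 3.32e-05). Plin4, another perilipin gene, rose by 4.84 and Cidec, whose product enlarges droplets, by 5.25. Fabp4, the adipocyte fatty acid carrier, stood at 12.5 and 14.1 at day 6 and at 559 and 629.96 at day 18 (change 5.38, SE 0.36, adjusted p = 3.32e-05). Its day 6 values lay at the level of the controls, which ran from 12.7 to 20.9. Lpl (3.62), which frees fatty acids from lipoproteins, and the fatty acid transporter gene Cd36 (3.48) also rose. Pck1, an enzyme of glycerol synthesis in fat cells, had the smallest p of the list, going from 0.449 and 0.234 to 31.3 and 28.8 (change 4.54, SE 0.24, adjusted p = 1.24e-05).

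The adipocyte markers that did not pass were Pparg and Cebpa. Pparg, the master transcription factor of fat cells, stood at 4.83 and 3.60 at day 6 and at 14.5 and 12.3 at day 18, and did not pass (change 1.47, adjusted p = 0.114). Cebpa, its partner factor, stood at 22.6 and 24.6 at day 6 and at 47.9 and 43.9 at day 18 (change 0.93, adjusted p = 0.0729). The treated tumours of day 3 had 55.6 and 59.4 of Cebpa, above both day 18 tumours. The insulin-responsive glucose transporter gene Slc2a4 (2.16) and the adrenergic receptor gene Adrb3 (2.79) rose. The adipocyte list held 14 to 16 rises when 1 of the 4 compared tumours was left out and 12 in the fit on those 4 tumours alone.

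**Figure D2:**
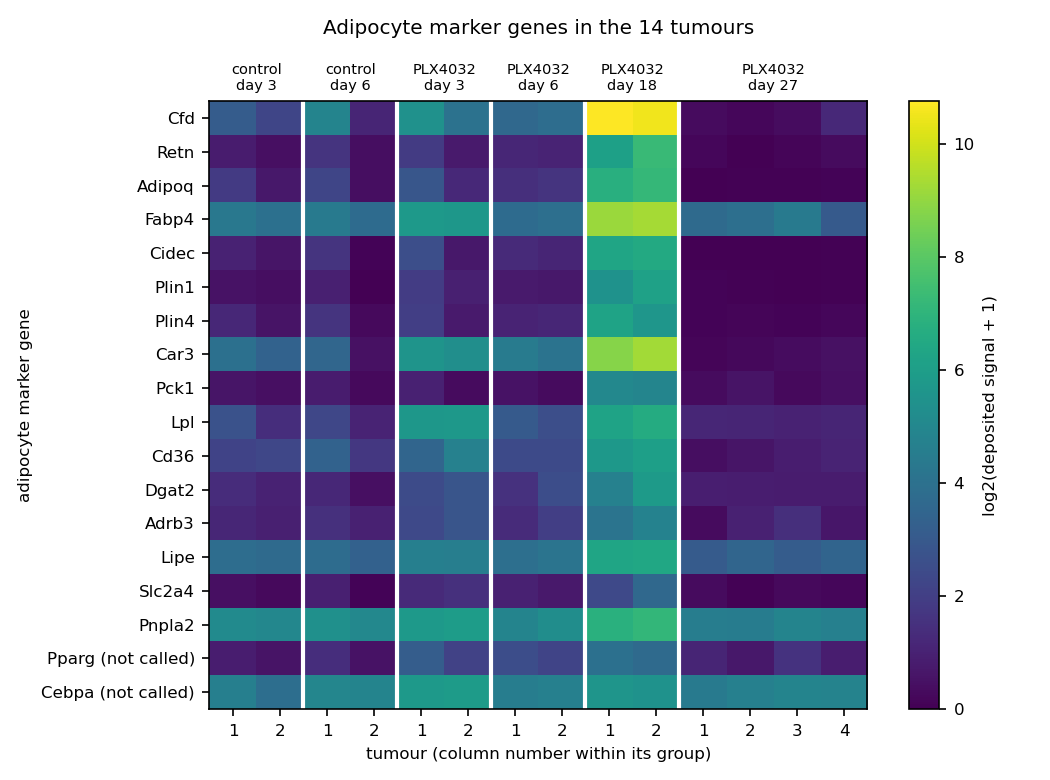
Rows are the 18 adipocyte markers tested, ordered by their change, and columns are the 14 tumours by group; colour gives the log2 of the deposited signal plus 1. The day 18 columns are the brightest in 17 of the 18 rows, Cebpa being the exception, and Pparg and Cebpa did not pass the test.

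The sequence upstream of Adipoq and Plin1 is shown because these genes rose with their list. Each window is the 120 bases before the RefSeq start on GRCm38.p6, at chr16:23146416-23146535 (plus strand) for Adipoq and at chr7:79732777-79732896 (minus strand) for Plin1. Capitals mark CCAAT on either strand in Adipoq and TTGCNNAA, a pattern of C/EBP sites, in Plin1.
Adipoq: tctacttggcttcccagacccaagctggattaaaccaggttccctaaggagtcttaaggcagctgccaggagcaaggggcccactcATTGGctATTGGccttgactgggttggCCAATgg
Plin1: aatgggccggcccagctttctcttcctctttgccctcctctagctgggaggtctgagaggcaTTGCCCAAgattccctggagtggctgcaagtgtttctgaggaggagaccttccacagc
Adipoq has 3 matches of CCAAT in its window and Plin1 has 1 match of TTGCNNAA. Over the 250 bases before the start, on both strands, CCAAT was found in 37.5% of 27025 genes with a promoter sequence and in 64 of the 148 rising genes that have one (43.2%). TTGCNNAA was found in 10.8% of all promoters and in 21 of the 148 (14.2%). Among the tested genes with a promoter sequence, the shares were 40.1% for CCAAT and 9.4% for TTGCNNAA. Among 10 rising adipocyte markers with a promoter sequence, 3 held CCAAT (Adipoq, Cd36, Plin4) and 2 held TTGCNNAA (Cidec, Plin1). Other patterns were scanned in the same way. The TATA box was found in 14.3% of all promoters, 8.5% of those of tested genes and 17 of the 148 (11.5%). A direct repeat of the nuclear receptor half-site was rare, in 0.4% of all promoters and 0.3% of those of tested genes. It was found in 0 of the 148, which decides little at such a rate. Both patterns were found in 0 of the 10 adipocyte markers. All of these are matches of letters only.

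Enzymes that make triglycerides rose in part. Of 17 genes of fatty acid and triglyceride synthesis, 6 rose and 0 fell, with a median of 0.57, where 1.36% of all genes tested rose. Leaving out 1 of the 4 compared tumours gave 4 to 8 rises, and the fit on those 4 alone gave 2. Thrsp, a lipogenic regulator, went from 0.407 and 0.576 at day 6 to 20.1 and 74.2 at day 18 (change 4.74). Scd1, the desaturase of fatty acids, stood at 54.6 and 48.3 at day 6 and at 548 and 756 at day 18 (change 3.62, SE 0.45, adjusted p = 0.00199). Both day 18 tumours lay above the controls, whose Scd1 ran from 32.5 to 108. Dgat2, which catalyses the last step of triglyceride synthesis and is also an adipocyte marker, rose by 3.27, and the carbohydrate-responsive factor gene Mlxipl by 2.62. The acyltransferase genes Gpam (1.07) and Agpat2 (1.05) completed the 6.

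Other lipogenic genes did not pass. Fasn, the fatty acid synthase, stood at 132 and 136 at day 6 and at 239 and 470.1 at day 18 (change 1.32, adjusted p = 0.0752). Acly (0.04) and Elovl6 (-0.05) lay near 0. All 17 genes of the list were higher in day 18 tumour 2 than in day 18 tumour 1, by a median of 0.50. Cholesterol synthesis, the neighbouring sterol branch, had 0 of 20 genes called by limma and 0 at an unadjusted p under 0.05 in either direction, with a median of -0.24. Its 20 genes were also all higher in day 18 tumour 2 than in tumour 1.

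Genes that release and burn fatty acids rose in part. Of 16 genes of lipolysis and fatty acid oxidation, 5 rose and 0 fell, with a median of 0.39, where 1.36% of all genes tested rose. The lipase genes Lipe (2.33), Pnpla2 (1.90) and Mgll (2.28) and the lipase cofactor gene Abhd5 (0.59) act in the breakdown of triglycerides. Lipe and Pnpla2 are also adipocyte markers. Lipe stood at 14.2 and 16.7 at day 6 and at 78.6 and 84.2 at day 18 (adjusted p = 8e-05). Ehhadh, an enzyme of peroxisomal oxidation, rose by 1.11. Of the mitochondrial genes, Hadhb (0.44, adjusted p = 0.166) and Cpt2 (0.52, adjusted p = 0.196) did not pass. Without 1 of the 4 compared tumours the list held 2 or 3 rises.

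Acute phase genes, made by liver and by fat, were measured through 5 of 10 listed members. Steap4, Hp and Lcn2 rose, 0 fell and the median was 3.06, where 1.36% of all genes tested rose. Hp, which encodes haptoglobin, stood at 20.8 and 46.7 at day 6 and at 1044 and 987 at day 18, with 2.04 to 54.3 in the controls. The groups did not overlap (change 4.98, SE 0.95, adjusted p = 0.0277), although the call was lost under 8 of 26 alternatives. Steap4, a metalloreductase gene of adipose tissue, went from 3.15 and 2.68 to 33.6 and 33.3 (change 3.14). Lcn2, the iron-scavenging lipocalin that neutrophils also carry, rose by 3.06. Saa3, a serum amyloid gene, stood at 197 and 149.6 at day 6 and at 319 and 207 at day 18 and did not pass (adjusted p = 0.85). The list held 1 or 2 rises without 1 of the 4 compared tumours.

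The remaining large rises by the naming rule were Wfdc21 (5.46), Cyp2e1 (5.12) and Apoc1 (5.05). Cyp2e1, a cytochrome P450 gene known from liver, stood at 0.359 and 0.477 at day 6 and at 47.7 and 49.1 at day 18. The day 18 pair was close together, and the controls ran from 0.0318 to 0.486. Apoc1, a lipoprotein gene, stood at 1.52 and 4.13 at day 6 and at 208 and 67.2 at day 18, and its call was lost under 6 of 26 alternatives. Wfdc21 stood at 0.963 and 1.56 at day 6 and at 123 and 77.5 at day 18.

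Genes of loose connective tissue rose in a subset. The fibroblast and matrix list had 23 genes tested, with 4 rises (against 1.36% of all genes), 0 falls and a median of 0.65. At an unadjusted p under 0.05, 10 were higher, against 9.16% of all genes. Lum, a small proteoglycan of collagen fibrils, stood at 16.3 and 15.6 at day 6 and at 65.8 and 71.3 at day 18 (change 2.03, SE 0.29, adjusted p = 0.00521). Its day 18 values were above those of all other tumours. Clec3b went from 4.26 and 2.59 to 56.6 and 39.7 (change 3.48), both of which lie between the 33.0 and 84.2 of the treated tumours of day 3. Dpt (1.93), which encodes the matrix protein dermatopontin, and Sfrp2 (2.65), a secreted Wnt antagonist, also rose. The main fibrillar collagen gene Col1a1 stood at 794 and 507 at day 6 and at 1198 and 1050.0 at day 18 and did not pass (change 0.82, adjusted p = 0.224). Without day 6 tumour 2 the list held 0 rises, without day 18 tumour 1 it held 1, and without day 18 tumour 2 it held 2. The adipocyte markers were higher in the same 2 tumours, and their part in the rises of the lipid, acute phase and fibroblast lists was not tested.

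Growth factor and receptor genes contributed 3 rises among 22 receptor tyrosine kinases and ligands, with 0 falls and a median of 0.31. Over all genes tested, 1.36% rose. Igf1, an insulin-like growth factor, stood at 5.92 and 6.73 at day 6 and at 34.1 and 28.8 at day 18 (change 2.15, adjusted p = 0.0372). The treated tumours of day 3, at 30.5 and 45.1, overlapped with those of day 18. Ntrk2, a neurotrophin receptor gene, went from 0.324 and 0.163 to 3.80 and 2.44 (change 1.71), and Fgf10, a fibroblast growth factor, from 0.221 and 0.614 to 1.46 and 1.69 (change 0.87). Egfr stood at 12.2 and 8.00 at day 6 and at 13.2 and 11.01 at day 18 (change 0.26, adjusted p = 0.745). Pdgfrb (0.22, adjusted p = 0.612) and Met (0.41, adjusted p = 0.268) did not pass. Each time 1 of the 4 compared tumours was left out, the list held 1 or 2 rises.

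**Figure D3:**
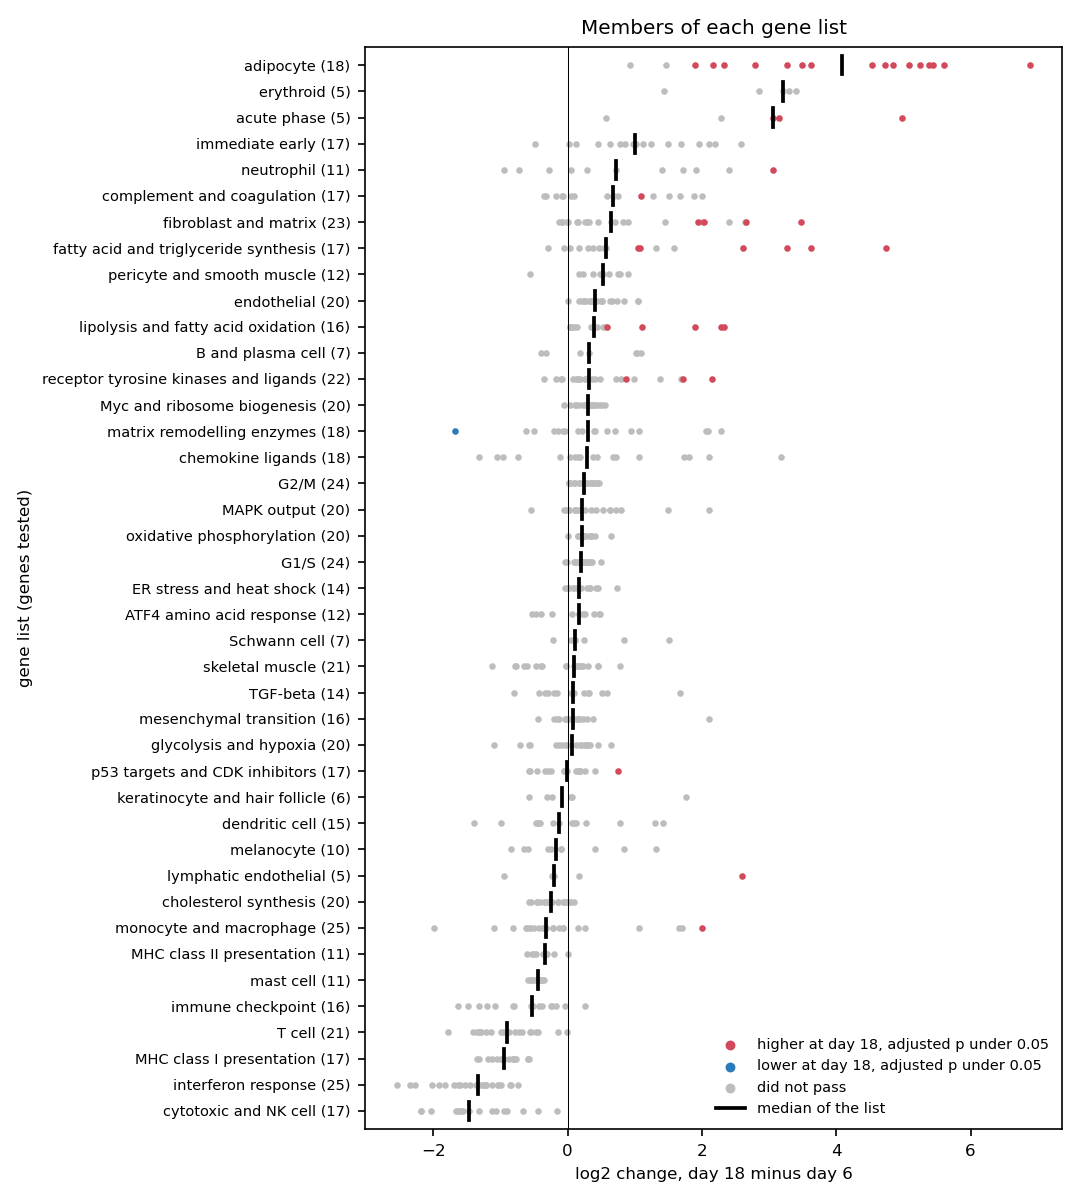
Each row is a gene list with at least 5 genes tested, with the number tested in brackets; points are the log2 changes of its members, day 18 minus day 6, and the black bar is their median. The adipocyte list has the highest median at 4.08, and the cytotoxic and NK cell list the lowest at -1.46 with 0 members called.

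The lowest fitted changes among the falls were those of Gzmd, Gzme, Gzmf and Gzmg, 4 granzyme genes of a cluster on mouse chromosome 14. Gzmf stood at 45.5 and 61.2 in the day 6 tumours and at 0.0644 and 0.156 in the day 18 tumours (change -5.60, SE 0.52, adjusted p = 0.000253). Gzmg stood at 42.6 and 44.1 at day 6 and was listed at 0 in both day 18 tumours (adjusted p = 0.00025), so no fold is given. Gzmd went from 30.6 and 53.7 to 0.243 and 0.342 (change -5.01), and Gzme from 12.4 and 19.0 to 0.0646 and 0.313 (change -3.79). No day 18 tumour came near a day 6 tumour in any of the 4. The call of Gzme was lost under 5 of 26 alternatives, while Gzmf, Gzmg and Gzmd passed under all 26.

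These genes were already expressed without the drug. Gzmf ran from 69.7 to 141 in the controls, above both day 6 tumours, and reached 152 and 614 in the treated tumours of day 3. Gzmg ran from 85.1 to 137 in the controls, and at day 27 it averaged 0.313 ± 0.0948 (SD, n = 4). At day 27 Gzmd averaged 1.47 ± 0.787, Gzmf 1.38 ± 0.665 and Gzme 0.802 ± 0.594 (SD, n = 4). These means lie below both day 6 tumours and above both day 18 tumours in each of the 4 genes. The transcripts of the 4 genes were not compared here. If they are as alike as the sequences before their starts, a read may be assigned to the wrong member. The level of each one is therefore uncertain.

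The 4 genes are alike in the sequence before their starts, shown because the 4 fell together. Each window holds 106 bases on the minus strand of GRCm38.p6, upstream of the RefSeq start: chr14:56132597-56132702 for Gzmd, chr14:56120630-56120735 for Gzme, chr14:56211432-56211537 for Gzmf and chr14:56159599-56159704 for Gzmg. Capitals mark a stretch of 36 bases that all 4 share.
Gzmd: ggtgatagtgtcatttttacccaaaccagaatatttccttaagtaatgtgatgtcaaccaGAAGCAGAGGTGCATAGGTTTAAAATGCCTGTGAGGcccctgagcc
Gzme: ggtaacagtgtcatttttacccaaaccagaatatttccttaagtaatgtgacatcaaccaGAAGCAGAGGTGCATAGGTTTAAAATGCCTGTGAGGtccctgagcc
Gzmf: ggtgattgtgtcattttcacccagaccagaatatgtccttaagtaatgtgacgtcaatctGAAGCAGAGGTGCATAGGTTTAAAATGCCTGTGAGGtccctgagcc
Gzmg: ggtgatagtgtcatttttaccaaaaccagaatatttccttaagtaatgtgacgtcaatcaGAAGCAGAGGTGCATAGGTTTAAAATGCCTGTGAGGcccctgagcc
Pairs of these windows were identical at 91.5% (Gzme and Gzmf) to 97.2% (Gzmd and Gzmg) of the 106 bases. The windows were aligned on the shared stretch, so its 36 bases are identical by construction. The shared stretch was picked as the longest that the 4 have in common, so its presence in them follows from that choice. It was found in 4 of 27025 genes with a promoter sequence, namely these 4 and no other. It says nothing of which factor binds there.

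Gzma, Gzmb, Gzmc, Gzmk and Gzmm did not pass, and Gzmn was not analysed here. Gzmb, the main granzyme of activated cytotoxic T cells, stood at 20.0 and 177 at day 6 and at 24.7 and 7.74 at day 18, and did not pass (adjusted p = 0.315). Day 6 tumour 1 lay between the day 18 tumours. Gzma stood at 11.9 and 73.3 at day 6 and at 9.67 and 3.41 at day 18 (change -2.18, adjusted p = 0.254). Gzmc, which lies in the same cluster on chromosome 14 as the 4, stood at 41.1 and 169 at day 6 and at 18.7 and 37.7 at day 18 (change -1.61, adjusted p = 0.367). Gzmk (-0.15, adjusted p = 0.935) and Gzmm (-0.28, adjusted p = 0.614), further granzyme genes, lay nearer 0. Gzmb, Gzmc, Gzmk and Gzmm were chosen after their values were seen. The difference between their changes and those of the 4 was not tested.

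**Figure D4:**
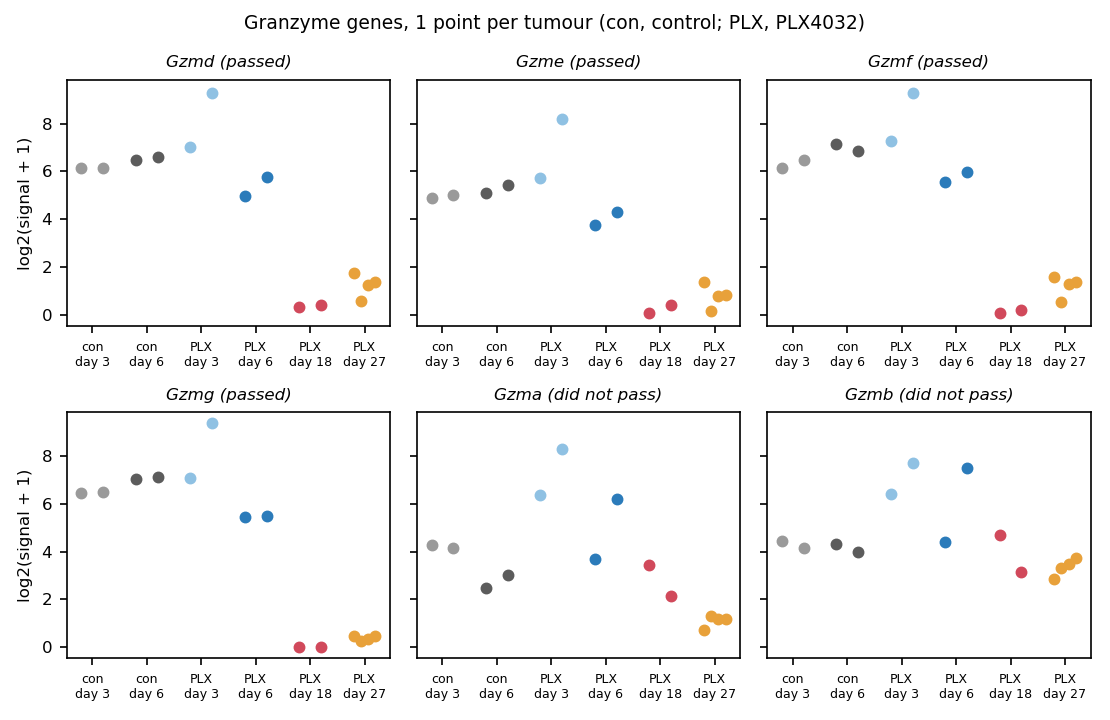
Each point is 1 tumour, with the log2 of the deposited signal plus 1 on the vertical axis and the 6 groups on the horizontal axis, for the 4 granzyme genes that fell and for Gzma and Gzmb, which did not pass. In the 4, the day 18 tumours lie near 0, while for Gzmb a day 18 tumour at 24.7 lies above a day 6 tumour at 20.0.

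The lists of T cell, cytotoxic, interferon and class I presentation genes had negative medians with 0 members called, and the 2 day 6 tumours differed widely. Gzmd, Gzme, Gzmf and Gzmg were not members of the cytotoxic list. Of 17 cytotoxic and NK cell genes, limma called 0, with 11 lower and 0 higher at an unadjusted p under 0.05 and a median of -1.46. Of 21 T cell genes it called 0, with 6 lower and 0 higher unadjusted and a median of -0.90. Of 25 interferon response genes it called 0, with 14 lower and 0 higher unadjusted and a median of -1.33. Of 17 genes of MHC class I presentation it called 0, with 10 lower and 0 higher unadjusted and a median of -0.94. Against these stand 4.65% of all genes lower at that level.

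Both day 18 tumours lay below both day 6 tumours for 9 of 25 interferon, 7 of 17 cytotoxic, 6 of 21 T cell and 9 of 17 class I genes, against 18.4% of all genes. The summed signals overlapped. The T cell genes summed to 169 and 535 in the day 6 tumours and to 208 and 97.4 in the day 18 tumours, with 46.2 to 80.9 in the controls. Day 18 tumour 1 therefore lay above day 6 tumour 1, and both day 18 tumours lay above the controls. The cytotoxic and NK cell genes summed to 401 and 1625 at day 6 and to 481 and 141 at day 18, and the interferon genes to 3018 and 10650 at day 6 and to 3530 and 1410 at day 18. All 25 interferon genes were higher in day 6 tumour 2 than in day 6 tumour 1, by a median of 1.86, and 0 of 25 were higher in day 18 tumour 2 than in day 18 tumour 1. All 21 T cell genes and all 17 cytotoxic genes were also higher in day 6 tumour 2.

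Single genes overlapped in some cases and not in others. Cd8a, a co-receptor gene of killer T cells, stood at 10.05 and 50.6 at day 6 and at 11.8 and 2.75 at day 18 (change -1.79, adjusted p = 0.294). Cd274, the gene of PD-L1, a ligand that restrains T cells, stood at 15.04 and 59.9 at day 6 and at 13.3 and 6.09 at day 18 (change -1.63, adjusted p = 0.22). Its day 18 values lay at the level of the controls, which ran from 3.73 to 9.67, or just above. Cxcl9, an interferon-induced chemokine gene, stood at 100.2 and 471 at day 6 and at 85.6 and 15.3 at day 18 (change -2.54, adjusted p = 0.162). Irf1, an interferon-induced transcription factor gene, stood at 167 and 389 at day 6 and at 121 and 90.1 at day 18 (change -1.28, adjusted p = 0.084). Cd8a overlapped between the groups, while Cd274, Cxcl9 and Irf1 did not. Klrc1, an NK cell receptor gene, had the smallest p of the cytotoxic list (change -2.19, adjusted p = 0.115).

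With day 6 tumour 1 left out, 10 interferon genes, 6 cytotoxic genes and 2 T cell genes fell, and with day 6 tumour 2 left out, 0 of any of these lists did. The immune checkpoint list, with 0 of 16 called, 4 lower and 0 higher unadjusted and a median of -0.53, held 2 falls without day 6 tumour 1. Class II presentation, with 0 of 11 called, 0 at an unadjusted p under 0.05 and a median of -0.34, also stood higher in day 6 tumour 2 for 10 of 11 genes. Without overlap, 6 of the 16 checkpoint genes and 2 of the 11 class II genes were lower and 0 were higher. Over all genes, 18.4% were lower and 30.3% higher without overlap. At an unadjusted p under 0.05, 4.65% of all genes were lower and 9.16% higher.

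**Figure D5:**
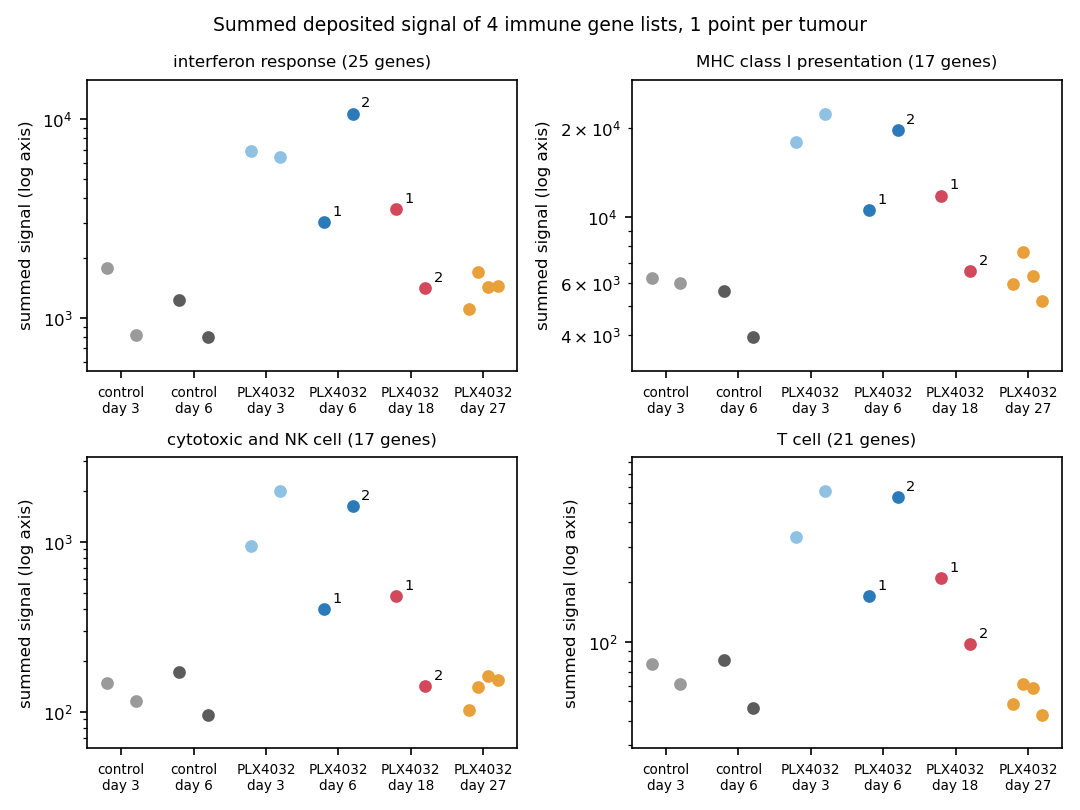
Each point is the summed deposited signal of a gene list in 1 tumour, on a log axis, for 4 immune lists, with the tumour number beside the points of day 6 and day 18. In each list day 18 tumour 1 lies between the day 6 tumours, at 3530 against 3018 and 10650 for the interferon genes.

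Myeloid cells showed a mixed pattern. Of 25 monocyte and macrophage genes, 1 rose (against 1.36% of all genes) and 0 fell, with a median of -0.33. The rise was that of Retnla, a gene of macrophages in tissue repair, at 7.12 and 1.78 at day 6 and 20.2 and 16.1 at day 18 (change 2.00, adjusted p = 0.0289). The list held 0 rises when day 6 tumour 2 or either day 18 tumour was left out. The scavenger receptor gene Cd163 (1.70, adjusted p = 0.274) and Folr2 (1.65, adjusted p = 0.259) did not pass. Marco, another scavenger receptor gene, stood at 1.62 and 8.69 at day 6 and at 0.513 and 0.0654 at day 18 (change -1.99, adjusted p = 0.269). C1qa, a complement gene of macrophages, stood at 698 and 882 at day 6 and at 887 and 511 at day 18, and the groups overlapped.

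Among the other falls by the naming rule were genes of inflammatory receptors and signalling. Gpr31b, a receptor gene, stood at 14.6 and 25.5 at day 6, at 4.39 and 2.51 at day 18 and at 0.384 to 1.09 in the controls (change -2.22, adjusted p = 0.024). Gpr84, a receptor gene of activated myeloid cells, went from 6.70 and 13.7 to 3.10 and 2.03 (change -1.59). Gpr31b was thus still above the controls at day 18. Map3k8, a kinase gene that feeds the MAPK cascade, went from 12.1 and 14.9 to 5.35 and 5.59 (change -1.16), below the controls at 7.33 to 9.71. The calls of Gpr31b, Gpr84 and Map3k8 were lost under 5, 13 and 14 of 26 alternatives.

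Matrix enzymes held 1 fall. Mmp13, a collagenase gene, stood at 13.7 and 20.1 at day 6 and at 3.45 and 5.84 at day 18 and was the 1 of 18 matrix remodelling genes that fell (change -1.68, adjusted p = 0.0163). Both day 18 tumours lay below the controls, which ran from 7.78 to 22.3. The call was lost under 4 of 26 alternatives, among them the fits without day 6 tumour 2 and without day 18 tumour 1. Mmp3, a stromelysin gene, stood at 46.2 and 129 at day 6 and at 367 and 397 at day 18 and did not pass (change 2.29, adjusted p = 0.1). The list had 0 rises and a median of 0.31. Over all genes, 1.36% rose and 0.145% fell. At an unadjusted p under 0.05, 6 members were higher, against 9.16% of all genes. The last falls named were Arntl (-1.05), the clock transcription factor gene, Dlx1 (-1.07), a homeobox gene, Gk (-1.04), a glycerol kinase gene, and Ptpn13 (-0.94), a phosphatase gene. Their calls were lost under 7 (Arntl), 9 (Dlx1), 5 (Gk) and 5 (Ptpn13) of 26 alternatives.

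Targets of the inhibited pathway did not pass. Of 20 MAPK output genes, limma called 0, with 3 higher and 0 lower at an unadjusted p under 0.05 and a median of 0.22. The changes ran from -0.55 to 2.11, and 9 of the 20 were higher and 1 lower without overlap. Over all genes, 30.3% were higher and 18.4% lower without overlap, and 9.16% were higher at an unadjusted p under 0.05. Etv4, an ETS transcription factor gene, stood at 42.7 and 45.1 at day 6, at 59.0 and 79.5 at day 18 and at 60.7 to 137 in the controls (change 0.63, adjusted p = 0.34). The day 18 tumours lay above the day 6 tumours, and tumour 2 was within the range of the controls. Dusp6, a feedback phosphatase gene of ERK, stood at 126 and 154 at day 6 and at 142 and 161 at day 18 (change 0.12, adjusted p = 0.809). Ccnd1, which encodes cyclin D1, stood at 307 and 386 at day 6 and at 329 and 423 at day 18 (change 0.12, adjusted p = 0.833), and the groups overlapped.

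Immediate early genes stood higher at day 18 without passing. Of 17, limma called 0, with 10 higher and 0 lower at an unadjusted p under 0.05, where 9.16% of all genes were higher, and a median of 1.01. Fos stood at 25.6 and 24.9 at day 6 and at 150.0 and 68.2 at day 18 (change 1.96, adjusted p = 0.0735). Egr1, which is also on the MAPK list, stood at 16.6 and 23.3 at day 6 and at 99.9 and 78.3 at day 18 (change 2.11, adjusted p = 0.188). The first day 18 tumour was the higher of the pair for 15 of the 17 genes.

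Cell division genes had small positive medians. Of 24 G2/M genes, limma called 0, with 5 higher and 0 lower unadjusted and a median of 0.25. Of 24 G1/S genes it called 0, with 2 higher and 0 lower unadjusted and a median of 0.20. At an unadjusted p under 0.05, 9.16% of all genes tested were higher. Mki67, a marker of cycling cells, stood at 45.7 and 42.1 at day 6 and at 50.0 and 54.5 at day 18, with 43.8 to 60.4 in the controls (change 0.25, adjusted p = 0.465). For 13 of the 24 G1/S genes both day 18 tumours lay above the other 12 tumours, against 5.16% of all genes tested. Rrm1, a subunit gene of ribonucleotide reductase, stood at 95.7 and 100.2 at day 6 and at 149 and 128 at day 18 (change 0.49, adjusted p = 0.171). Of 20 genes of Myc and ribosome biogenesis, limma called 0, with 8 higher and 0 lower unadjusted and a median of 0.31. Cad, a pyrimidine synthesis gene, came closest at 40.7 and 39.4 at day 6 and 52.2 and 66.9 at day 18 (change 0.55, adjusted p = 0.0603).

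Vim, Axl and Mitf overlapped between the groups. Vim, an intermediate filament gene of mesenchymal cells, stood at 4735 and 3532 at day 6 and at 4632 and 5001 at day 18. Axl, a receptor tyrosine kinase gene, stood at 365 and 430.5 at day 6 and at 415 and 388 at day 18. Mitf, the master regulator gene of the melanocyte lineage, was low in all 4, at 2.56 and 3.12 at day 6 and at 3.59 and 1.82 at day 18. Of 18 melanocyte genes listed, 10 were tested and 0 were called, with 2 higher and 1 lower unadjusted and a median of -0.17. The groups did not overlap for 7 of the 10, 3 higher and 4 lower at day 18. Over all genes, 30.3% were higher and 18.4% lower without overlap. At an unadjusted p under 0.05, 9.16% of all genes were higher and 4.65% lower. Tyr, Tyrp1, Dct and Mlana, which define pigment cells, were not analysed here. Ddx3y, a gene of the Y chromosome that female hosts lack, stood at 13.7 and 7.87 at day 6 and at 12.99 and 21.2 at day 18 (change 0.63, adjusted p = 0.455). Xist, expressed by female cells, stood at 27.3 and 36.1 at day 6 and at 41.5 and 30.1 at day 18 (change 0.17, adjusted p = 0.883).

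Genes of other tissues differed between the tumours in several ways. Skeletal muscle genes, with 0 of 21 called and 0 at an unadjusted p under 0.05, summed to 475 and 743 at day 6 and to 90.8 and 2600.0 at day 18, so day 18 tumour 2 had the highest value of the series and tumour 1 lay below both day 6 tumours. All 21 muscle genes were higher in day 18 tumour 2 than in tumour 1. Erythroid genes, of which limma called 0 of 5 with 5 higher unadjusted and 5 not overlapping, summed to 58.7 and 75.9 at day 6 and to 1162 and 324.5 at day 18, with 79.0 to 618 in the controls. Endothelial genes, with 0 of 20 called, 3 higher unadjusted and 16 higher without overlap, summed to 323 and 370.5 at day 6 and to 460 and 450.4 at day 18. Of all genes tested, 1.36% rose, 9.16% were higher unadjusted and 30.3% were higher without overlap. B and plasma cell genes, with 0 of 7 called and 0 at an unadjusted p under 0.05, had a median of 0.33 and summed to 89.4 and 119.5 at day 6 and to 507.5 and 77.8 at day 18. Of the lymphatic markers only Lyve1, a hyaluronan receptor gene that macrophages also express, rose (2.59), 1 of 5 tested, a call that was lost when any 1 of the 4 compared tumours was left out, while Flt4 stood at 1.56 and 2.18 at day 6 and at 1.59 and 1.38 at day 18. The simple epithelium gene Epcam stood at 0.257 and 0.520 at day 6 and at 0.279 and 10.9 at day 18. The part of these tissues in the other results was not tested.

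The remaining lists held few calls. Of 11 neutrophil genes, 1 rose and 0 fell, with a median of 0.72, and the rise was that of Lcn2, counted above with the acute phase genes. At an unadjusted p under 0.05, 4 of the 11 were higher and 0 lower, and 6 were higher and 2 lower without overlap. In the complement and coagulation list, 1 of 17 genes rose, 0 fell and the median was 0.68. It was Plau, which encodes the protease urokinase, at 46.2 and 66.1 at day 6 and 107 and 132 at day 18 (change 1.09, adjusted p = 0.0378). Of 17 p53 targets and CDK inhibitors, 1 rose and 0 fell, and it was Cdkn2b, an inhibitor gene of the cell cycle, from 0.725 and 0.561 to 1.72 and 1.82 (change 0.75). The rises of Plau and Cdkn2b were not called when any 1 of the 4 compared tumours was left out. Of 18 chemokine genes, limma called 0, with 4 higher and 0 lower at an unadjusted p under 0.05. Cxcl14, a chemokine gene of skin and stroma, came closest, at 10.1 and 16.1 at day 6 and 136 and 112 at day 18 (change 3.17, adjusted p = 0.0528). Of 20 genes of oxidative phosphorylation it called 0, with 3 higher and 0 lower unadjusted and a median of 0.22. Over all genes, 1.36% rose, and 9.16% were higher and 4.65% lower at an unadjusted p under 0.05. Without overlap, 30.3% of all genes were higher and 18.4% lower.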

How the data were processed

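RNA was sequenced from 14 whole tumours. Per the labels' protocols, RNA came from frozen tissue by Trizol and libraries from an Illumina TruSeq RNA kit. The deposited file is 1 signal table by gene symbol, named as TPM. Since 5 of its 14 columns sum to more than TPM can, the signal is not plain TPM, and its scaling is unknown (not given in the sources used here). Per the submitters' processing notes, kallisto, sleuth and the mm10 build were used. A value of 0 may be an estimate that failed. Depth and counting error are unknown because the signal is not in counts.

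Column names gave each tumour's group but not its animal. Symbols were matched to a mouse gene name table (96.4% of 18481). Genes at 1 or more in at least 2 columns were tested on log2(signal + 1) with limma 3.58.1 in R 4.3.3, fitted to 6 group means with a variance trend, 2-sided, and p-values were adjusted by Benjamini-Hochberg across the 15841 genes. Text names follow a rule: the 12 largest rises and the 12 largest falls among called genes whose tumours do not overlap, with a higher group mean of at least 5 and no predicted genes; from each list, at most 4 genes by p, plus those that show its range; and a fixed set of genes. The members, lists and rule were chosen with earlier results of these data known. Abhd5, Acly, Adrb3, Agpat2, Cd36, Cebpa, Cpt2, Elovl6, Fasn, Gpam, Gzmb, Gzmc, Gzmk, Gzmm, Hadhb, Lpl, Pparg, Saa3 and Slc2a4 are named beside it, to show the range of a list or a gene's role, and were chosen after their values were seen. Promoter sequences are RefSeq's on GRCm38.p6. In simulated data for 15841 genes with 200 changed, 61.2% of genes changed by 1 log2 unit, 86.6% by 2 and 92.4% by 3 were recovered, and 10 of 170 calls were unchanged genes. Values there were independent and the changed genes were drawn from those with higher means. Alternatives were 15 planned ones and 11 chosen after seeing the data.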

Additional observations from a re-analysis of the deposited data

How the results depend on the processing

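The count of 239 genes was 130 with a pseudocount of 0.1, 139 with a filter at 5, 57 in a fit on the 4 compared tumours alone (49 of them shared with the 239) and 107 without the 4 day 27 tumours. Leaving out 1 of the 4 compared tumours gave 93 to 289 genes, of which 51.9% to 96.4% were higher: 289 without day 6 tumour 1, 93 without day 6 tumour 2, 167 without day 18 tumour 1 and 122 without day 18 tumour 2. A lone tumour is then assumed to vary like the other groups. Leaving out 1 of the other 10 tumours, chosen after seeing the data, gave 177 to 322 genes, and removing repeated rows gave 239. The other alternatives gave 217 to 335 genes, and quantile normalization left 86.9% higher. The 12 largest rises kept their direction under all 26 alternatives, as did the 12 largest falls. Changes near 0, none of them called, turned sign. Axl was -0.022 with median-of-ratios rescaling and -0.072 with quantile normalization, and Vim was -0.027 with quantile normalization. Without 1 of the 4 compared tumours, Axl ran from -0.101 to 0.136 (-0.03 without day 18 tumour 1), Ccnd1 from -0.064 to 0.297 (-0.049 without day 6 tumour 1), Dusp6 from -0.024 to 0.257, Xist from -0.057 to 0.391 (-0.029 without day 6 tumour 1), Pdgfrb from -0.122 to 0.567, Egfr from -0.009 to 0.538, Mitf from -0.443 to 0.262 (0.016 without day 6 tumour 2) and C1qa from -0.617 to 0.176. The cause of these shifts was not tested. No paired analysis was possible because the columns carry no number that ties a day 18 tumour to a day 6 tumour.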

Other observations

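A few gene groups outside the lists above were chosen after their values were seen and are given as values only. Mpo and Prtn3, which encode proteins of the primary granules of immature neutrophils, rose: Mpo stood at 0.375 and 0.586 at day 6 and at 10.7 and 8.15 at day 18 (change 2.81, adjusted p = 3.32e-05 by limma), and Prtn3 at 0.981 and 1.01 and at 31.2 and 13.9 (change 3.46). They were 2 of 3 primary granule genes tested; the other, Ctsg, had a change of 0.11 and did not pass. In the controls Mpo ran from 0.0759 to 0.328 and Prtn3 from 1.72 to 3.90. The secreted Wnt antagonist genes Sfrp1 (2.42) and Sfrp4 (2.74) rose beside Sfrp2, 3 of 7 such genes tested. Of all genes tested, 1.36% rose. Il6, a cytokine gene, went from 1.59 and 1.69 to 6.48 and 5.52 (change 1.40), and Il33, an alarmin gene, from 15.4 and 19.5 to 72.6 and 56.3 (change 1.83). Mup18 (4.61) and Mup11 (3.85), of a family of near-identical urinary protein genes whose single levels are uncertain, also rose.

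Of the 216 genes that rose, 24 had both treated tumours of day 3 below all 4 controls, which held for 27.8% of all genes tested, and 120 had them above, which held for 31.2% of all genes. Dusp9, a phosphatase gene of MAP kinases, was among the 24: it stood at 1.22 and 1.49 at day 3, at 6.79 and 9.71 at day 6 and at 27.2 and 27.3 at day 18, with 7.60 to 9.06 in the controls (change 1.63, adjusted p = 0.0027 by limma). Nefl, a neurofilament gene, stood at 1.92 and 1.18 at day 3, at 11.5 and 14.6 at day 6 and at 46.3 and 45.3 at day 18 (change 1.74). Atg9b, an autophagy gene, stood at 9.92 and 6.77 at day 6 and at 31.5 and 46.7 at day 18 (change 2.10), and Acsl6, an acyl-CoA synthetase gene, at 3.94 and 3.40 and at 10.2 and 9.75 (change 1.24).

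Of 12 clock genes tested, chosen after Arntl was seen to fall, 8 were higher and 1 lower at an unadjusted p under 0.05, with 0 rises and 1 fall called. Over all genes, 9.16% were higher and 4.65% lower at that level. Dbp, a clock output gene, stood at 19.6 and 10.5 at day 6 and at 44.2 and 41.9 at day 18 (change 1.52, adjusted p = 0.285 by limma), against 13.4 to 71.4 in the controls.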
